A study of Mus musculus with 28 samples.

Results

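The Cyp2c epoxygenase cluster is a row of cytochrome P450 genes on mouse chromosome 19. The 10 members described here, Cyp2c29, Cyp2c37, Cyp2c38, Cyp2c39, Cyp2c40, Cyp2c50, Cyp2c54, Cyp2c67, Cyp2c68 and Cyp2c69, were chosen by name. They were found by Ensembl identifier among the 54446 genes counted in each library, and all 10 were present. Nicotinamide mononucleotide (NMN), a precursor of NAD+, was given by gavage to male C57BL/6 mice (C57BL6J in the methods of the study) aged 8 weeks for 7 days, and control mice were gavaged with water on the same schedule. At 1340 mg/kg/d there was 1 gavage per day and each organ had 4 NMN and 4 water libraries. At 2680 mg/kg/d there were 2 gavages per day and 3 libraries in each group. The dose and the number of gavages therefore cannot be told apart. PolyA RNA from both organs was sequenced in 28 libraries, one for each labelled replicate, with 12688324 to 33872983 reads counted on genes. Of the 8 liver libraries at 1340 mg/kg/d, NMN replicate 4 stood apart. Of its tally of aligned reads, 70.7% were counted on genes (78.1% to 81.4% in the others). A further 12.8% lay on no annotated gene (4.91% to 7.44%) and 5.1% were ambiguous between genes (3.09% to 3.59%). The study calls the replicates biological, but the labels do not tie a library to a mouse, and p-values measure the spread between these libraries. In such bulk samples, fewer cells of a type and less RNA per cell cannot be told apart.

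These genes encode monooxygenases of the endoplasmic reticulum. Several of the enzymes add an epoxide to arachidonic acid and so make epoxyeicosatrienoic acids, lipid mediators which soluble epoxide hydrolase then turns into diols. The P450 enzymes take their electrons from NADPH through P450 oxidoreductase, and the liver is the main site of expression of the family. Nuclear receptors such as CAR and PXR, liver factors such as HNF4A and the pulsing of growth hormone are known to act on many Cyp2c genes.

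In the order of the chromosome the members were Cyp2c29, Cyp2c38, Cyp2c39, Cyp2c67, Cyp2c68, Cyp2c40, Cyp2c69, Cyp2c37, Cyp2c54 and Cyp2c50. Cyp2c67, Cyp2c68, Cyp2c40 and Cyp2c69 were neighbors on the minus strand and were near copies of each other. Over 1473 coding bases compared without gaps, 1407 (95.5%) were alike in all 4. Cyp2c40 had 87 further coding bases. The stretches below are shown because they set what a read could tell about these 4 genes. The first stretch, bases 486 to 560 of the coding sequence counted in Cyp2c67, was the same in every copy, and a read lying wholly inside it could not be assigned. No window of 150 coding bases was alike in all 4.
Cyp2c67, Cyp2c68, Cyp2c40 and Cyp2c69: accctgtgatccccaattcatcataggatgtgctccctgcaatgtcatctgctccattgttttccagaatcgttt
The next stretch, bases 249 to 323, held the most differences of any window of 75 bases. Capitals mark the 10 bases that differ among the copies.
Cyp2c67: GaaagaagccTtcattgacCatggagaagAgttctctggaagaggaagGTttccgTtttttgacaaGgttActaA
Cyp2c68: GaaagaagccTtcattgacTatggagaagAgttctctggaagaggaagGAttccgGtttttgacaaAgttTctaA
Cyp2c40: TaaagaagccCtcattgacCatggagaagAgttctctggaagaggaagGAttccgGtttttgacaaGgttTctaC
Cyp2c69: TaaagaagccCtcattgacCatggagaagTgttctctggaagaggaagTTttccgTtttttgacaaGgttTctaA

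The members fell into sets of copies at a coding identity of 90% or more. Cyp2c37, Cyp2c50 and Cyp2c54 formed a set, in which Cyp2c37 and Cyp2c50 were the closest pair (96.1%). Cyp2c38 and Cyp2c39 formed another at 94.2%. Cyp2c67 and Cyp2c69 were the closest of the 4 copies at 97.7%. Cyp2c29 had no copy at this level, and its closest member, Cyp2c39, was 89.5% identical. The authors' counting left out reads that aligned to several places, which were 10.1% to 20% of the tally of a library. This tally holds aligned reads only. The length of the reads is not given in the sources used here, so windows of 50, 75 and 150 bases were compared. At 75 bases, 99.5% of the windows of the Cyp2c29 transcript were found in no other gene, but only 42.9% of those of Cyp2c40 and 56.8% of those of Cyp2c69. For Cyp2c40 the share was 27.9% at 50 bases and 70.9% at 150 bases, and for Cyp2c69 it was 45.2% and 77.5%. At 75 bases the shares were 64% for Cyp2c67 and 71.5% for Cyp2c68, and 82.2% to 86.2% for Cyp2c37, Cyp2c50 and Cyp2c54. Cyp2c38 (98.1%) and Cyp2c39 (97%) were nearly as distinct as Cyp2c29. The levels given here were not corrected for this. Cyp2c29 also shares 142 exon bases with the pseudogene Cyp2c53-ps.

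**Figure D1:**
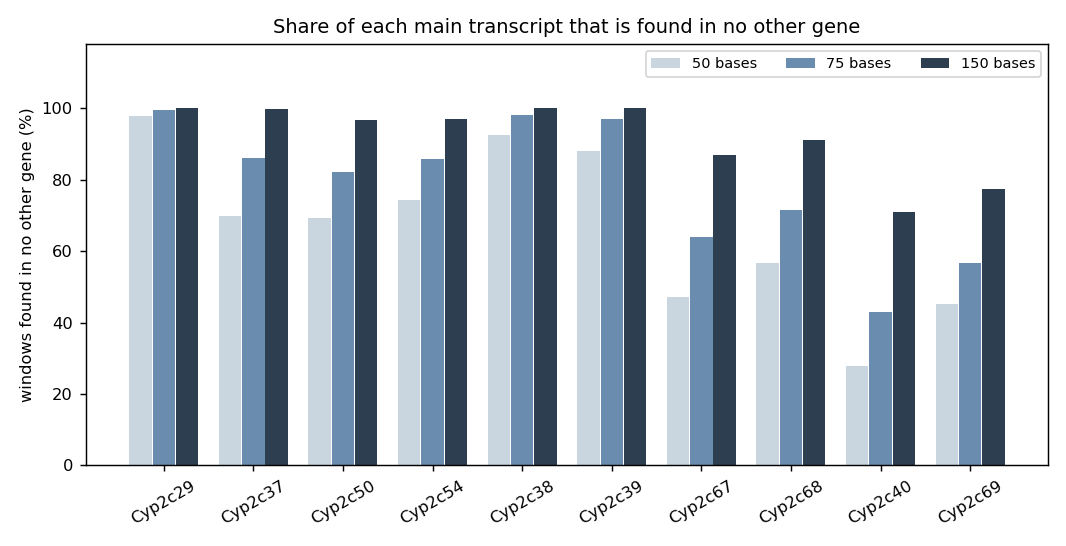
Share of the windows of each main transcript, in percent, that was found in no other gene, for windows of 50, 75 and 150 bases. Cyp2c40 and Cyp2c69 have the lowest bars at each length, 42.9% and 56.8% at 75 bases, and Cyp2c29 reaches 99.5%.

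Promoters of 9 members were matched in the RefSeq table of build GRCm38.p6, and Cyp2c54 was not. The letters CAAAGTC, a core of the HNF4 motif, were searched on both strands from 250 bases before to 50 bases after the start site. They were found in 7 of the 9 members, Cyp2c29, Cyp2c37, Cyp2c39, Cyp2c40, Cyp2c67, Cyp2c68 and Cyp2c69, and in 4.44% of 32851 promoters of the same length. The stretches around it are shown for Cyp2c29 and the 4 copies, which include all members that changed in the liver, with the motif in capitals. The stretches lie before the start site at chr19:39286916-39287015 (plus strand), and on the minus strand at chr19:39649128-39649227, chr19:39741139-39741238, chr19:39812820-39812919 and chr19:39886805-39886904, in the order printed.
Cyp2c29: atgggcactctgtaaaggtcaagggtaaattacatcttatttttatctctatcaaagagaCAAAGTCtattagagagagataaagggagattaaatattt
Cyp2c67: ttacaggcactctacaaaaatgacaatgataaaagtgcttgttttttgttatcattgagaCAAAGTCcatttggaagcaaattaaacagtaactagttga
Cyp2c68: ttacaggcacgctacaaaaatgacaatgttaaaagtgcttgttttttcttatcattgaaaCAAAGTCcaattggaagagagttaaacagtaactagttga
Cyp2c40: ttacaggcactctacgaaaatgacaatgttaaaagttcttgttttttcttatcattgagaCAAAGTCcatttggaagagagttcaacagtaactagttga
Cyp2c69: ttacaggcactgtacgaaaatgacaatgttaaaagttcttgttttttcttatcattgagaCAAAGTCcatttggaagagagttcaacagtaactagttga
Over their aligned parts, the promoters of Cyp2c40 and Cyp2c69 were 98.9% identical, and those of the other pairs of the 4 copies 91.6% to 94.4%. The FOXA core TGTTTAC was found in Cyp2c38 and Cyp2c39 (3.65% of all promoters). The nuclear receptor letters AGGTCA were found in Cyp2c29 and in promoter entry 1 of Cyp2c39, but not in its entry 2 (16.3% of all promoters). The STAT5 letters TTCNNNGAA were in none of the 9 (8.3% of all promoters). No match of these motifs overlapped another in a member. A match of letters is a description and not a binding site. The promoters of the 4 copies are near copies themselves, so their matches are not independent of each other.

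The liver of the water mice expressed all 10 members. Levels are given as CPM, the count scaled to the size of the library with TMM factors, divided by the kilobases of exons. Cyp2c29 was the highest member in both schedules, with 338 ± 43.6 CPM per kb (SD, n = 4) in the 1340 mg/kg/d schedule and 862 ± 52.3 CPM per kb (SD, n = 3) in the 2680 mg/kg/d schedule. This was 25.4% and 37.9% of the summed level of the 10 genes. Cyp2c50 (301 ± 23.4 and 454 ± 43.8 CPM per kb) and Cyp2c54 (221 ± 40.5 and 299.7 ± 19.1 CPM per kb) followed. In the 1340 mg/kg/d schedule Cyp2c29 and Cyp2c50 lay within their spread, as did Cyp2c68 (159 ± 29.96 CPM per kb) and Cyp2c37 (153 ± 26.1 CPM per kb). Cyp2c67 was at 119 ± 17.2 CPM per kb, and each neighbor from Cyp2c54 down to Cyp2c67 was within the SDs of the next. In the 2680 mg/kg/d schedule Cyp2c37 (245 ± 28.7), Cyp2c67 (216 ± 9.82) and Cyp2c68 (174 ± 4.57 CPM per kb) came next, of which Cyp2c37 and Cyp2c67 were within their SDs.

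The other members were scarce in the water livers. Cyp2c40 was at 19.0 ± 8.93 CPM per kb in the 1340 mg/kg/d schedule and at 7.10 ± 1.21 CPM per kb in the 2680 mg/kg/d schedule, Cyp2c38 at 10.1 ± 4.05 and 14.8 ± 2.49 CPM per kb, and Cyp2c69 at 7.33 ± 3.02 and 3.52 ± 0.443 CPM per kb. In the 1340 mg/kg/d schedule the spread of these 3 genes overlapped. Cyp2c39 was the lowest, with 0.556 ± 0.426 and 0.816 ± 0.410 CPM per kb, from 4 to 36 counts in a library. Levels of the water groups were not tested between the schedules.

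**Figure D2:**
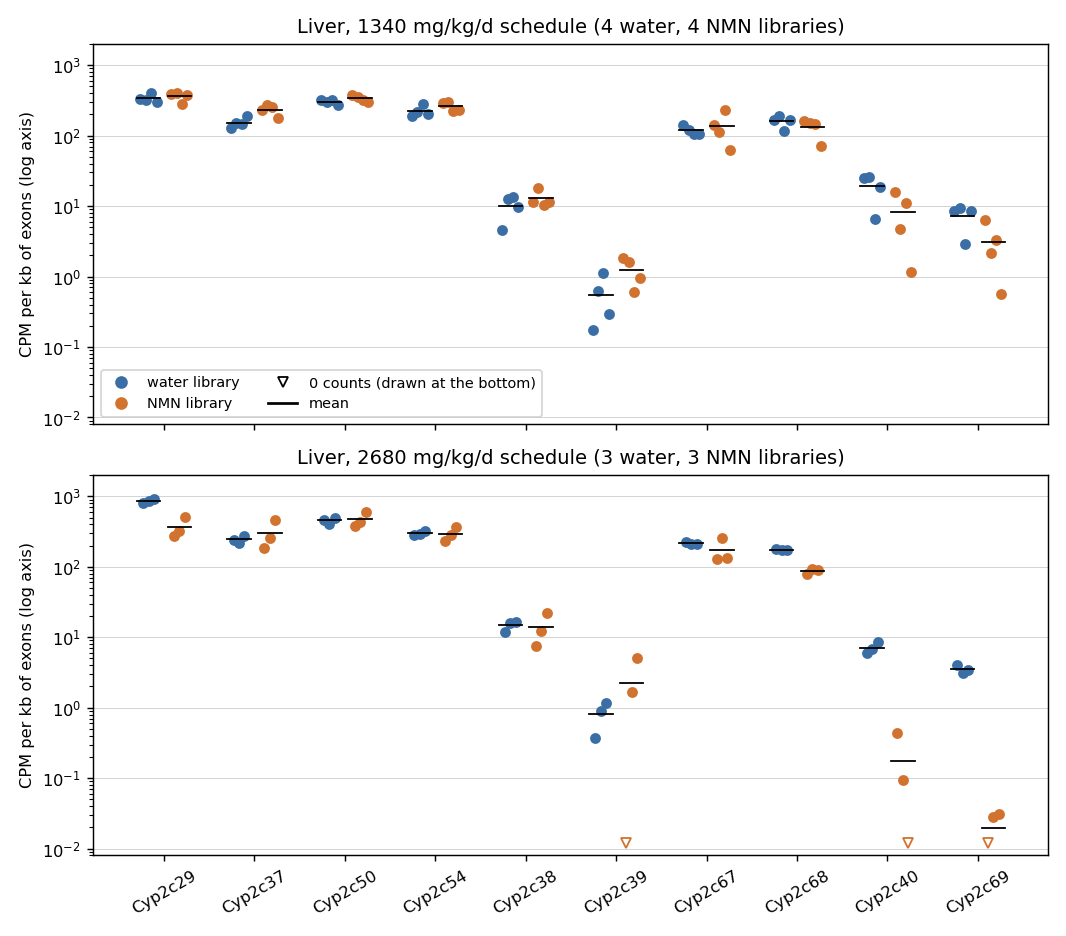
CPM per kb of exons (log axis) of the 10 members in each liver library, by treatment, with the mean as a line, for the 1340 mg/kg/d schedule (upper panel) and the 2680 mg/kg/d schedule (lower panel); open triangles are libraries with 0 counts. In the lower panel the NMN points of Cyp2c29, Cyp2c68, Cyp2c40 and Cyp2c69 lie below all water points, and in the upper panel the groups overlap for each member.

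At 2680 mg/kg/d, NMN down-regulated 4 of the 10 members in the liver and up-regulated none. They were Cyp2c29, Cyp2c40, Cyp2c68 and Cyp2c69. Cyp2c29 and Cyp2c68 fell to less than 0.5 of their water level, and Cyp2c40 and Cyp2c69 were nearly lost. All 10 passed the filter on low counts, but Cyp2c40 and Cyp2c69 only through their water libraries. Counts of called members that include these genes, and the shares set beside them, are therefore a description. With at least 10 counts in every library Cyp2c40 and Cyp2c69 were not tested, and fewer members were called. A gene was called at an adjusted p below 0.05 (Benjamini-Hochberg) by the quasi-likelihood F-test of edgeR. Of all 12477 genes tested, 7.08% were called and 4.03% were called lower. By a stricter rule, with an adjusted p below 0.01 and a fold above 2 or below 0.5, Cyp2c40, Cyp2c68 and Cyp2c69 were called, against 0.729% of all genes called lower. The groups of all 4 did not overlap, and 16% of all genes were lower in this way. A two-sided exact permutation test of 3 against 3 libraries cannot give a p below 0.1, which was its value for each of the 4. The median log2 fold change (log2FC) of the 10 was -0.20, beside 0.00 for all genes.

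Cyp2c69 had 132, 103 and 100 counts in the 3 water livers. It had 0, 1 and 1 counts in the 3 NMN livers, so every NMN library was at the floor and far below every water library. The level was 6.01 ± 0.756 CPM (SD, n = 3) with water and 0.0335 ± 0.0291 CPM (SD, n = 3) with NMN. The summed counts gave a water level 181 times that with NMN, with a 95% Poisson interval of 49.7 to 1499.9 that covers counting error only. The fitted log2FC was -7.24 (SE, the standard error, 0.56, adjusted p = 0.000137 from edgeR), and its size rests on 2 counts.

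Cyp2c40, which encodes an enzyme known to hydroxylate arachidonic acid, had 240, 269 and 290 counts in the water livers and 18, 4 and 0 in the NMN livers. NMN replicate 3 had no count and NMN replicate 1 the most, and the groups were far apart. The level was 14.5 ± 2.47 CPM with water and 0.360 ± 0.467 CPM with NMN, and the summed counts differed by 39.2 times (95% Poisson interval 25.7 to 62.9). Its log2FC was -5.29 (SE 0.68, adjusted p = 0.00539). Without NMN replicate 1 it was -7.09 (adjusted p = 7.87e-05), and it was called with each library left out.

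Cyp2c68 was at 309, 294 and 297 CPM in the water livers and at 135, 158 and 154 CPM in the NMN livers. The libraries of each group lay close together, and the groups did not overlap. Its log2FC was -1.01 (SE 0.13, adjusted p = 0.00235), with the smallest SE of the 10 members. It lay between -1.06 and -0.95 with each library left out.

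Cyp2c29 is known as an epoxygenase and as a gene that CAR can induce. It was at 2473, 2651 and 2792 CPM in the water livers and at 842, 1000.1 and 1572 CPM in the NMN livers. NMN replicate 3 was the highest of the NMN libraries and was still below each water library. Its log2FC was -1.21 (SE 0.21, unadjusted p = 0.000126, adjusted p = 0.0101), so that it missed the stricter rule by its adjusted p. Its share of the summed level of the 10 genes was 37.9% with water and 21.5% with NMN, where Cyp2c50 had the largest share, 27.7%.

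The 6 other members were not called. Cyp2c67, the fourth of the near copies, was at 392, 359 and 370 CPM with water and at 221, 450 and 232 CPM with NMN. NMN replicate 2 lay above all water libraries and the other NMN libraries below them. Its log2FC was -0.31 (SE 0.25, adjusted p = 0.484), and without NMN replicate 2 it was called at -0.73 (adjusted p = 0.0132).

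Cyp2c39 had 13, 32 and 36 counts with water and 0, 63 and 174 with NMN. The NMN libraries lay on both sides of the water libraries, and the log2FC of 1.45 had an SE of 1.37 (adjusted p = 0.576). Its copy Cyp2c38 ranged from 34.2 to 47.4 CPM with water and from 21.2 to 63.2 CPM with NMN. Like Cyp2c39, Cyp2c38 was lowest in NMN replicate 1 and highest in NMN replicate 3 (log2FC -0.09, SE 0.35, adjusted p = 0.914).

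Cyp2c37, Cyp2c50 and Cyp2c54 overlapped between the groups. The log2FC was 0.29 (SE 0.29, adjusted p = 0.593) for Cyp2c37, 0.06 (SE 0.17, adjusted p = 0.879) for Cyp2c50 and -0.03 (SE 0.17, adjusted p = 0.943) for Cyp2c54. All 3 genes were lowest in NMN replicate 1 and highest in NMN replicate 3 among the NMN libraries. The spread was wider with NMN than with water, for Cyp2c37 an SD of 253 CPM against 52.4 CPM.

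**Figure D3:**
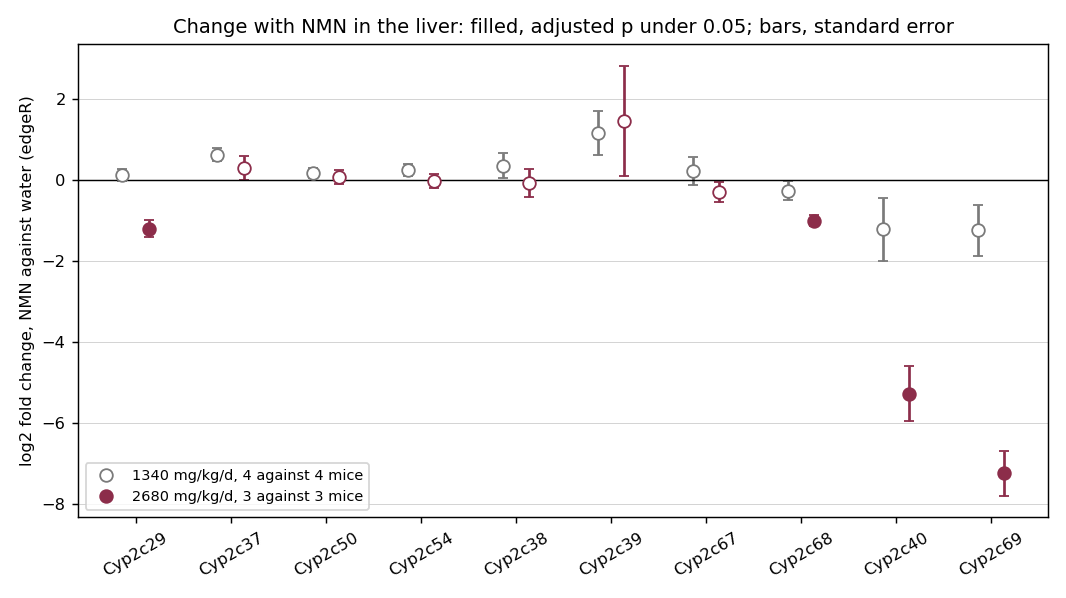
Log2 fold change of NMN against water in the liver for each member at both schedules, with the SE as bars; filled points passed an adjusted p under 0.05 in edgeR. Cyp2c29, Cyp2c68, Cyp2c40 and Cyp2c69 are filled at 2680 mg/kg/d (-1.21, -1.01, -5.29 and -7.24), and no point is filled at 1340 mg/kg/d.

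The counts of copies were also summed before the fit, with no test. The 4 copies Cyp2c40, Cyp2c67, Cyp2c68 and Cyp2c69 together were at 694 ± 24.4 CPM with water and at 450.4 ± 138 CPM with NMN (SD, n = 3 each) in the 2680 mg/kg/d schedule, and their sum had a log2FC of -0.62 (SE 0.19). Cyp2c67 and Cyp2c68 made up most of this sum in each of the 14 liver libraries. NMN replicate 2, with its high Cyp2c67, had a sum of 609 CPM, and the other NMN libraries had 357 and 386 CPM. The sum of Cyp2c37, Cyp2c50 and Cyp2c54 had a log2FC of 0.09 (SE 0.19), and that of Cyp2c38 and Cyp2c39 of 0.00 (SE 0.41). The sum over all 10 members was at 5684 ± 324 CPM with water and at 4082 ± 1108 CPM with NMN. Whether reads moved between copies in the alignment was not tested.

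**Figure D4:**
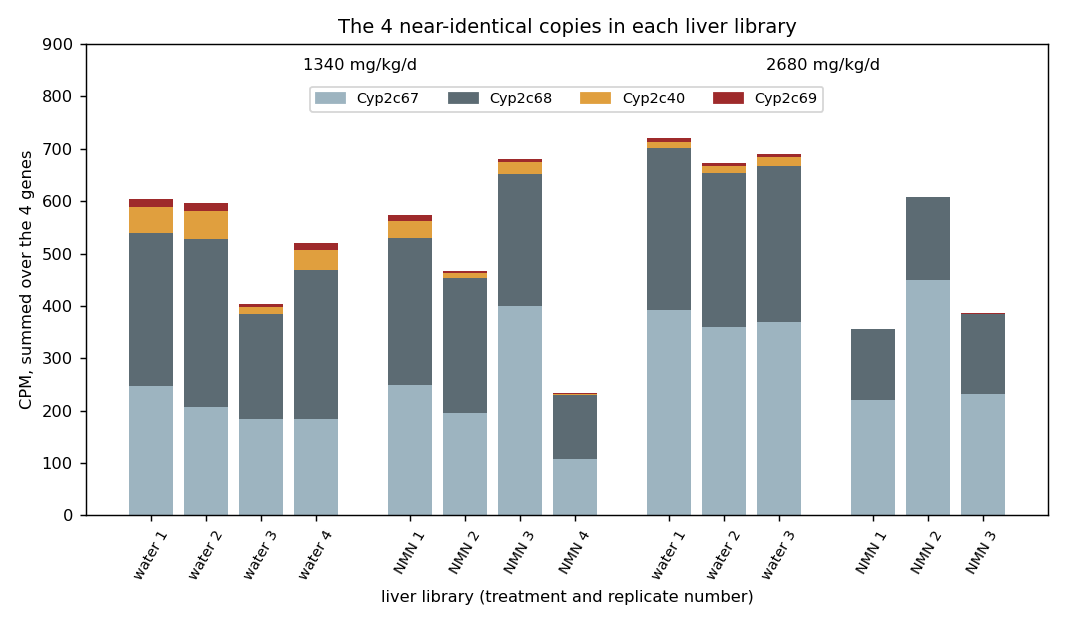
CPM of Cyp2c67, Cyp2c68, Cyp2c40 and Cyp2c69 stacked in each liver library (vertical axis from 0). The bands of Cyp2c40 and Cyp2c69 are thin throughout and vanish in the 3 NMN libraries of the 2680 mg/kg/d schedule, whose sums are 357, 609 and 386 CPM.

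At 1340 mg/kg/d no member was called in the liver, although all 10 were tested. Only 2 of 12449 genes were (0.0161%), and the Wald test of DESeq2 called no member either. At an unadjusted p under 0.05, which 6.86% of all genes had, there was 1 member. This was Cyp2c37, with 232, 274, 267 and 345 CPM with water and 419, 493, 467 and 326 CPM with NMN. Water replicate 4 lay above NMN replicate 4, and the other NMN libraries were above all water libraries. Its log2FC was 0.61 (SE 0.16, adjusted p = 0.338).

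Cyp2c40 and Cyp2c69 varied widely at this schedule. Cyp2c40 had 646, 787, 187 and 568 counts with water and 429, 157, 346 and 31 with NMN. Cyp2c69 had 184, 243, 69 and 214 counts with water and 143, 61, 87 and 13 with NMN. For both genes water replicate 3 was the lowest water library and NMN replicate 4 the lowest NMN library, and the groups overlapped. The log2FC was -1.22 (SE 0.78, unadjusted p = 0.165) for Cyp2c40 and -1.25 (SE 0.63, adjusted p = 0.785) for Cyp2c69.

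Cyp2c29 was at 1018, 992, 1220 and 904 CPM with water and at 1212, 1229, 854 and 1146 CPM with NMN in the 1340 mg/kg/d schedule. The groups overlapped throughout, and its log2FC was 0.10 (SE 0.15, adjusted p = 0.930). Cyp2c68 had one of -0.27 (SE 0.24, adjusted p = 0.873), with NMN replicate 4 the lowest library at 121 CPM. Without this library, which stood apart in its share of counted reads, the log2FC was -0.06 for Cyp2c68, -0.86 for Cyp2c40, -0.91 for Cyp2c69 and 0.45 for Cyp2c67. Still none of the 10 members was called, while 18 genes were called in all in place of 2. The part of the counted share in these values was not tested. For Cyp2c38, Cyp2c39, Cyp2c50, Cyp2c54 and Cyp2c67 the log2FC lay between 0.17 and 1.15, the last for Cyp2c39 with 4 to 47 counts in a library. None of the 10 members had groups that did not overlap, against 3.53% of all genes tested.

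Whether the NMN effect differed between schedules was tested by an interaction term with the 14 liver libraries. None of the 10 members was called by edgeR, and 10 of 13412 genes were (0.0746%). The interaction of Cyp2c29 was -1.31 in log2 units (SE 0.26, adjusted p = 0.0907 from edgeR). It was called in DESeq2 (adjusted p = 0.00198), with upper quartile scaling (adjusted p = 0.0442), with no filter on low counts (adjusted p = 0.000161), without NMN replicate 3 of the 1340 mg/kg/d schedule (adjusted p = 0.0478) and without NMN replicate 3 of the 2680 mg/kg/d schedule (adjusted p = 0.00624). That of Cyp2c69 was -5.95 (SE 1.24, adjusted p = 0.103) and was called in DESeq2 (adjusted p = 0.00365) and without NMN replicate 4 of the 1340 mg/kg/d schedule (adjusted p = 0.00649). Cyp2c40 had an interaction of -4.05 (SE 1.33, adjusted p = 0.402) and Cyp2c68 of -0.73 (SE 0.31, adjusted p = 0.514). At an unadjusted p under 0.05, which 8.6% of all genes had, 4 members passed this level, which were Cyp2c29, Cyp2c40, Cyp2c68 and Cyp2c69.

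Across the 14 liver libraries the log2 CPM of Cyp2c40 and Cyp2c69 had a Pearson correlation of 0.961. Cyp2c68 had one of 0.785 with Cyp2c40 and of 0.837 with Cyp2c69. Cyp2c67, the other copy, had one of -0.06 with Cyp2c40 and of -0.04 with Cyp2c69. Cyp2c50 and Cyp2c54 had one of 0.867. These are descriptions over libraries that share treatment, schedule and, for the copies, ambiguous reads. Among tested genes outside the Cyp2c family, those most like Cyp2c69 were Leap2, which encodes a liver peptide hormone (0.966), Fahd2a (0.965) and Bphl, a serine hydrolase gene (0.965). In the 2680 mg/kg/d schedule Leap2 was at 76.3 ± 17.5 CPM with water and 18.0 ± 4.96 CPM with NMN. Those most like Cyp2c29 were Rbbp9 (0.946), Pm20d1, which encodes an enzyme of N-acyl amino acids (0.894), and Cc2d2a (0.887).

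The genes around the pathway were taken from lists. Of 5 other Cyp2c genes in the files, 3 were tested in the liver at 2680 mg/kg/d and Cyp2c55 alone was called. Over all genes 7.08% were called and 4.03% were called lower. Cyp2c55 was at 6.65, 5.71 and 8.06 CPM with water and at 2.27, 2.06 and 3.94 CPM with NMN, with no overlap (log2FC -1.30, SE 0.32, adjusted p = 0.0346). Cyp2c70, which makes muricholic acids from bile acids, had a log2FC of -0.02 (SE 0.15), and Cyp2c23, known as the arachidonic acid epoxygenase of the kidney, had one of -0.44 (SE 0.15, adjusted p = 0.0993). Of the Cyp2j epoxygenase genes 3 were tested and edgeR called none, with 1 at an unadjusted p below 0.05, beside 24.6% of all genes. This was Cyp2j9 (log2FC 0.69, SE 0.28, adjusted p = 0.159).

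Of 2 tested epoxide hydrolases, Ephx1, the microsomal enzyme, was up-regulated. It was at 288, 309 and 325 CPM with water and at 458, 823 and 976 CPM with NMN (log2FC 1.29, SE 0.24, adjusted p = 0.0152). Each NMN library lay above each water library. Ephx2, the soluble epoxide hydrolase that acts on epoxyeicosatrienoic acids, had a log2FC of 0.17 (SE 0.15, adjusted p = 0.533). Among 5 redox partners, Por, the oxidoreductase that passes electrons to P450 enzymes, rose (log2FC 1.17, SE 0.28, adjusted p = 0.0446) and Cyb5r3, the reductase of cytochrome b5, fell (-0.78, SE 0.15, adjusted p = 0.0130). In the same comparison 7.08% of all genes were called.

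Of 29 tested nuclear receptors and liver factors, 1 rose and 3 fell at 2680 mg/kg/d, with a median log2FC of 0.16, and 7.08% of all genes were called. Nr1i3, which encodes CAR, rose from 51.6 ± 6.12 CPM to 134.5 ± 21.01 CPM (SD, n = 3 each), a log2FC of 1.38 (SE 0.16, adjusted p = 0.00141). The growth hormone receptor gene Ghr (-0.57) and the liver factor gene Cebpa (-0.59) were among those that fell, with adjusted p of 0.0374 and 0.0489. Hnf4a, which encodes HNF4A, had a log2FC of 0.57 (adjusted p = 0.0663) at this schedule and of 0.68 (adjusted p = 0.117) at 1340 mg/kg/d. Of 9 known targets of CAR and PXR, the transporter genes Abcc2 (0.82, adjusted p = 0.0345) and Abcc3 (1.14, adjusted p = 0.0245) rose and the P450 gene Cyp3a11 fell (-1.04, SE 0.14, adjusted p = 0.00317).

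Of 12 male-biased liver genes, 6 fell and none rose, with a median log2FC of -1.01 beside 0.00 for all genes, of which 4.03% were called lower. Hsd3b5, a steroid dehydrogenase gene, fell (log2FC -2.18, adjusted p = 0.00605), Susd4 fell (-1.07, adjusted p = 0.0128), the major urinary protein gene Mup3, which has near copies, fell (-1.07, adjusted p = 0.0152) and the transporter gene Slco1a1 fell (-1.03, adjusted p = 0.0161). None of 4 tested female-biased genes was called by edgeR, and 0 of 4 had an unadjusted p below 0.05. Of 16 tested enzymes of other routes of arachidonic acid metabolism, Cyp4a14, which has near copies, rose (log2FC 3.21, SE 0.60, adjusted p = 0.0421) and Cyp4f14 fell (-1.24, SE 0.14, adjusted p = 0.00124). Of all genes, 7.08% were called in either direction. At 1340 mg/kg/d edgeR called no gene of these lists in the liver. At an unadjusted p below 0.05 there were 1 of 3 other Cyp2c genes, 1 of 3 Cyp2j genes, 1 of 2 epoxide hydrolases, 1 of 5 redox partners, 1 of 12 male-biased genes and 1 of 5 female-biased genes. There were also 8 of 30 nuclear receptors and liver factors, 3 of 9 targets of CAR and PXR, 4 of 15 other arachidonic acid enzymes, 4 of 13 periportal genes and 0 of 14 pericentral genes, beside the 6.86% of all genes.

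Genes of liver zones and of other cells were counted beside these results. Of 14 genes of hepatocytes around the central vein 4 fell and none rose, with a median log2FC of -0.52, beside 4.03% of all genes called lower. They were Glul, the glutamine synthetase gene (-1.32, adjusted p = 0.00831), Oat (-1.22, adjusted p = 0.00143), Lhpp (-0.85, adjusted p = 0.0157) and Slc13a3 (-1.01, adjusted p = 0.0414). The summed level of the list was 11870, 15460 and 15000 CPM with water and 8708, 10570 and 12420 CPM with NMN, and Cyp2e1 was its most abundant gene in both groups. Of 13 periportal genes, Hsd17b13 and Pigr rose and Cyp2f2 fell, beside 7.08% of all genes called in either direction. Their part in the change of the Cyp2c genes was not tested.

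Of 7 hepatocyte markers none was at 0 in the liver at 2680 mg/kg/d and 1 was called (7.08% of all genes were). Of the 7 markers, 3 had an unadjusted p below 0.05 (24.6% of all genes did), with a median log2FC of -0.31. The called marker, Ttr, fell (-0.97, adjusted p = 0.00227). The summed level of the 7 markers, of which Alb was the most abundant, was 162800, 153200 and 145900 CPM with water and 113200, 124800 and 123700 CPM with NMN, and the groups did not overlap. Their part in the change of the Cyp2c genes was not tested either. No marker of leukocytes, endothelium, stellate cells or bile duct cells was called by edgeR or had an unadjusted p below 0.05 (0 of 6, 5, 6 and 5 tested). Of the kidney tubule markers Slc13a3, which the liver also expresses, fell. Kap, a kidney tubule marker, had 432 counts in NMN replicate 1 of the 2680 mg/kg/d liver against 10 to 119 in the other libraries of that schedule, where it was at 0.515 to 6.12 CPM. Without this NMN replicate 1 the same number of members, 4, was called. In the 8 liver libraries at 1340 mg/kg/d Kap was at 23.8 to 36.7 CPM. Of 5 genes of intestine and pancreas 2 were at 0 in all liver libraries of the schedule, and Cela1 fell (-2.17, adjusted p = 0.000731). The summed level of these 5 genes, of which Fabp2 was the most abundant, was 61.1, 63.3 and 55.0 CPM with water and 37.0, 26.9 and 17.7 CPM with NMN. Their part was not tested.

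In the kidney the cluster was nearly silent. The sum over the 10 members in the water mice was 5.50 ± 0.726 CPM (SD, n = 4) in the 1340 mg/kg/d schedule and 2.76 ± 0.905 CPM (SD, n = 3) in the 2680 mg/kg/d schedule, against 3147 ± 169 CPM and 5684 ± 324 CPM in the liver. By edgeR 9 of 9 and 10 of 10 tested members were called lower in the kidney, beside 30.9% and 31% of all genes tested. Most of them passed the filter on low counts only through the liver, so these counts were fixed by the filter and are a description. With at least 10 counts in every library only 2 and 1 members were tested, and all were called. The median log2 difference of all genes was 0.10 and 0.17 in favor of the kidney. Cyp2c39 had no count in any kidney library.

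Cyp2c69 had the highest share of its liver level in the kidney. It had 90 counts over the 4 water kidneys of the 1340 mg/kg/d schedule and 94 over the 3 of the 2680 mg/kg/d schedule, which was 11.6% and 29.9% of its liver level. In the 2680 mg/kg/d schedule the liver level was 3.34 times that of the kidney (95% Poisson interval 2.65 to 4.25, counting error only). These percents and ratios, and those below, rest on TMM factors set within each organ and schedule. The edgeR fits behind the calls scaled both organs together. There the log2FC of Cyp2c69, kidney against liver, was -4.04 (SE 0.38) at 1340 mg/kg/d and -2.58 (SE 0.35) at 2680 mg/kg/d. Both stand for a lower kidney share than the percents above. Cyp2c38 was at 0.767% and 0.681% of its liver level and Cyp2c68 at 0.183% and 0.166%.

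For other members with kidney counts, the counts differed between the schedules. Cyp2c29 had 87 counts over 4 water kidneys of the 1340 mg/kg/d schedule and 6 over 3 of the 2680 mg/kg/d schedule, 0.137% and 0.00436% of the liver level. Cyp2c50 had 51 and 0 counts, and Cyp2c37 had 29 and 0, so that the liver level was at least 23011 and 7745 times higher in the 2680 mg/kg/d schedule, set against a floor of 3 counts over the group. Albumin (Alb) and the major urinary protein gene Mup20, which hepatocytes make in large amounts, were at 0.116% and 0.0934% of their liver levels in the 1340 mg/kg/d kidneys and at 0.00871% and 0.00374% in the kidneys at 2680 mg/kg/d, where Mup20 had 3 counts. Cyp2c37, Cyp2c40, Cyp2c50, Cyp2c54 and Cyp2c67 lay between 0.0820% and 0.167% at 1340 mg/kg/d. The part of RNA from liver in these kidney counts was not tested. The 7 hepatocyte markers summed to 285 ± 30.1 CPM in the 1340 mg/kg/d water kidneys, with Ttr the most abundant and none at 0, and to 186 ± 12.6 CPM in the 2680 mg/kg/d water kidneys, with 1 at 0.

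**Figure D5:**
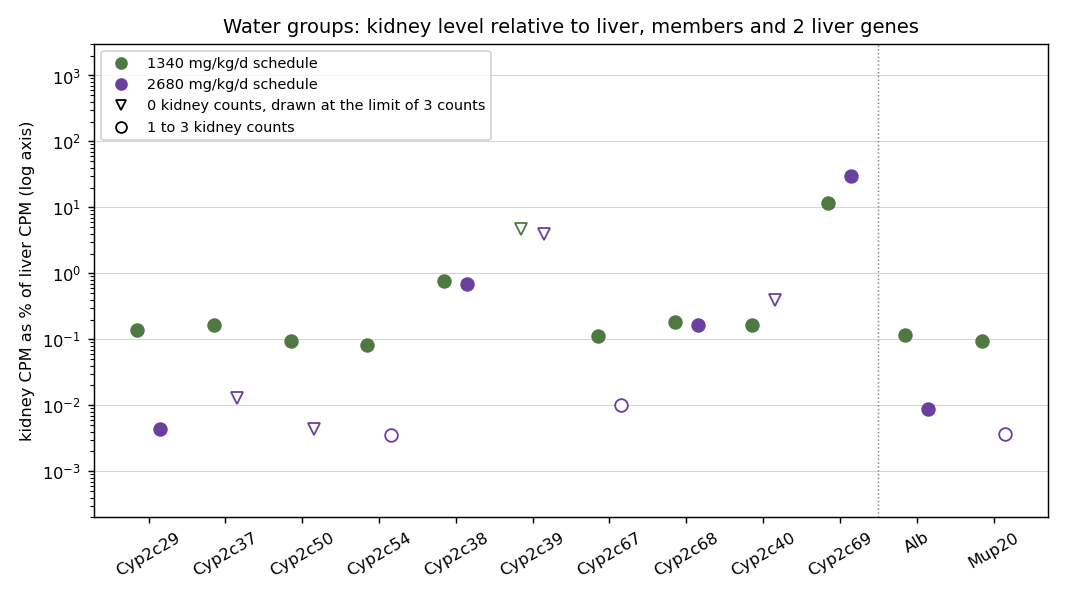
Kidney CPM as a percent of liver CPM in the water mice (log axis) for the 10 members and the liver genes Alb and Mup20, at both schedules; open triangles mark 0 kidney counts and are drawn at the value 3 counts would give, and open circles rest on 1 to 3 counts. Cyp2c69 lies highest among the genes with counts, at 11.6% and 29.9%. Liver and kidney CPM were scaled separately, and the edgeR fits with both organs scaled together gave Cyp2c69 a lower kidney share.

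With NMN no member was called in the kidney. In the 1340 mg/kg/d schedule 3 members had enough counts for a test, Cyp2c29, Cyp2c50 and Cyp2c69, and none was called (18 of 14972 genes were, 0.12%). DESeq2 also called none at either schedule. Cyp2c69 had 30, 20, 24 and 16 counts with water and 12, 11, 11 and 6 with NMN. Each NMN library lay below each water library, and 2.83% of all genes tested were lower in this way. The log2FC was -0.99 (SE 0.41, unadjusted p = 0.0273, adjusted p = 0.484 from edgeR). A two-sided exact permutation test gave p = 0.0286, the smallest that 4 against 4 libraries allow. Cyp2c29 and Cyp2c50 had log2FCs of -0.01 (SE 0.45) and 0.20 (SE 0.45).

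At 2680 mg/kg/d Cyp2c69 alone was tested in the kidney. It had 27, 18 and 49 counts with water and 11, 15 and 22 with NMN. In CPM, which takes account of the larger NMN libraries, it was at 1.42, 1.08 and 2.94 with water and at 0.462, 0.657 and 0.658 with NMN. The groups did not overlap, and 8.69% of all genes tested were lower in this way. The log2FC was -1.59 (SE 0.41, unadjusted p = 0.00213, adjusted p = 0.138 from edgeR), and 61 of 15245 genes were called (0.4%). With no filter on low counts its adjusted p was 0.00457. The interaction of schedule and NMN in the kidney was tested for 5 members and none was called, beside 0.00625% of all genes (-0.60 for Cyp2c69, SE 0.60). Of Cyp2c38, not tested, there were 5 counts in each water kidney and 2 in each NMN kidney, and of Cyp2c68, also not tested, 12, 6 and 8 counts with water and 9, 7 and 5 with NMN.

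Of the other genes of the pathway, Cyp2c23 was at 8.69% and 8.95% of its liver level in the water kidneys, with each organ scaled separately. It was at 31.0 and 48.6 CPM there. Its log2FC in the kidney was -0.02 (SE 0.14) at 1340 mg/kg/d and -0.28 (SE 0.11, adjusted p = 0.351) at 2680 mg/kg/d. Of the Cyp2j genes 6 were compared between the organs in each schedule, and 4 and 5 of them were called higher in the kidney, where 36.1% and 39.5% of all genes were. In each schedule 1 was called lower. With NMN, edgeR called none of the Cyp2j genes, epoxide hydrolases or redox partners in the kidney at either schedule. At an unadjusted p below 0.05 there were 0 of 6, 1 of 2 and 1 of 5 at 1340 mg/kg/d, and 0 of 7, 0 of 3 and 2 of 5 at 2680 mg/kg/d, beside 8.94% and 11.1% of all genes. From the other lists the bilirubin glucuronidation gene Ugt1a1 rose at 1340 mg/kg/d (log2FC 3.37, adjusted p = 0.0393). At 2680 mg/kg/d Cyp2d9 rose (log2FC 0.73, adjusted p = 0.0122) and the proximal tubule gene Miox fell (log2FC -0.82, adjusted p = 0.0121). The 7 proximal tubule markers, of which Kap was the most abundant and none was at 0, summed to 35880 ± 4990 CPM with water and 28030 ± 3140 CPM with NMN at 1340 mg/kg/d, and to 31720 ± 1380 and 24260 ± 3290 CPM at 2680 mg/kg/d. In each schedule every NMN library summed below every water library, and 5 of the 7 had an unadjusted p below 0.05. The 6 markers of other kidney cells, of which Umod was the most abundant and none was at 0, summed to 3935 to 4588 CPM with water and to 5157 to 5433 CPM with NMN at 1340 mg/kg/d, where the groups did not overlap. At 2680 mg/kg/d they summed to 3027 to 3552 and 3320 to 3815 CPM, and the groups overlapped. None of the 6 was called by edgeR, and 3 and 0 had an unadjusted p below 0.05. The part of both marker lists in the kidney values of Cyp2c69 was not tested.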

How the data were processed

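Counts were made by the authors and deposited as whole reads per gene for each library. Per the methods of the study, STAR aligned the reads with default settings and HTSeq counted them in intersection-strict mode without strand, so overlapping and antisense genes are not separated. Rows that name no gene held 18.6% to 29.3% of the tally of aligned reads of a library and were left out of library sizes. The build named in the methods is not a mouse build. Coordinates and sequences come from RefSeq and GENCODE models on GRCm38, and 53229 of 54446 gene identifiers matched GENCODE with the same version. Liver libraries held 12688324 to 16455228 (1340 mg/kg/d) and 17573184 to 20635269 counts (2680 mg/kg/d), and kidney libraries 13174264 to 15696435 and 16358886 to 33872983.

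Genes were filtered with filterByExpr and tested over the whole table with edgeR 4.0.16 (TMM, robust quasi-likelihood) in R 4.3.3, with limma 3.58.1 loaded and DESeq2 1.42.0 as an alternative. Each NMN group was tested against its own water group, kidney against liver in water, and the schedules by an interaction. The steps were tested on simulated data. Alternatives were other scalings and filters, each library left out, a replicate block and the sum over copies, whose grouping by coding sequence (90% identity) was chosen after seeing the data. Poisson intervals are at 95% and cover counting error only, and the floor was 3 counts over a group. All 10 members are named, with up to 4 called genes of each list, up to 2 with the smallest p where none was called and the 3 genes most like Cyp2c29 and Cyp2c69. Members and lists were chosen with earlier results of these data known. Alb, Mup20, Kap, Hnf4a, Ephx2 and Cyp2c70 were named after their values were seen.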

Additional observations from a re-analysis of the deposited data

Results flagged for a closer look

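Each member was checked in the groups of 4 libraries for a library far from the other 3. In 38 groups with any spread, 4 such libraries were found, and chance gives about 1 in 20. Cyp2c69 was at 4.88 CPM in water replicate 3 of the liver at 1340 mg/kg/d, where the other water libraries were at 14.5 to 16.2 CPM. Cyp2c38 was at 52.0 CPM in NMN replicate 2 of the same schedule, where the other NMN libraries were at 30.1 to 32.99 CPM. In the kidney at 1340 mg/kg/d, Cyp2c54 was at 0.642 CPM (10 counts) in water replicate 4, where the other water libraries had 3 to 4 counts (0.195 to 0.252 CPM). Cyp2c37 was at 0.679 CPM (9 counts) in NMN replicate 1 of the same kidneys, where the other NMN libraries had 1 to 2 counts (0.0702 to 0.148 CPM).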

How the results depend on the processing

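Counts of called members are given by alternative. With at least 10 counts in every library, 2 members were called in the liver at 2680 mg/kg/d in place of 4, 2 in place of 9 between the organs at 1340 mg/kg/d and 1 in place of 10 at 2680 mg/kg/d, since fewer genes were tested (Cyp2c39, Cyp2c40 and Cyp2c69 were then not tested in the liver). With no filter on low counts, 1 member was called in the kidney at 2680 mg/kg/d and 1 in the liver interaction. In the liver interaction DESeq2 called 2 and upper quartile scaling 1, and leaving out 1 library gave 0 to 1. The cause was not tested. Leaving out 1 library gave 4 to 5 in the liver at 2680 mg/kg/d.

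The sign of the log2FC of some uncalled members turned with a library left out. In the liver it ranged from -0.16 to 0.45 for Cyp2c67 at 1340 mg/kg/d, and at 2680 mg/kg/d from -0.15 to 0.53 for Cyp2c37, -0.58 to 0.21 for Cyp2c38, -0.15 to 0.19 for Cyp2c50 and -0.22 to 0.11 for Cyp2c54. In the kidney at 1340 mg/kg/d it was -0.38 to 0.23 for Cyp2c29, and 0.0014 with no filter, and -0.0078 to 0.41 for Cyp2c50. The liver interaction was -1.11 to 0.89 for Cyp2c39 and -0.32 to 0.039 for Cyp2c50, and the kidney interaction -0.20 to 3.14 for Cyp2c50 and -2.72 to 0.77 for Cyp2c54.

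Replicate numbers did not pair the libraries by the rule used, since not every pair of equal numbers had a correlation of deviations over 0.1 (0.0577 to 0.151 in the liver at 2680 mg/kg/d, where 6 of 6 libraries correlated best with their own number, and -0.0342 to 0.155 and 2 of 8 at 1340 mg/kg/d). In the kidney it was -0.0995 to 0.142 (4 of 8) at 1340 mg/kg/d and -0.014 to 0.0432 (2 of 6) at 2680 mg/kg/d. Between water liver and kidney every equal pair was above 0, at 0.06 to 0.22 (7 of 8) and 0.0635 to 0.158 (6 of 6). With the replicate block the liver at 2680 mg/kg/d kept a count of 4 called members and had 1153 genes called in place of 883, and the liver at 1340 mg/kg/d had 0 members and 16 genes in place of 2. Between the organs 9 and 10 members were called with the block, as without it. With this block the liver interaction of Cyp2c39 was -0.66.

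Near-identical copies limit the counts of Cyp2c40, Cyp2c67, Cyp2c68 and Cyp2c69. Counts of 0 to 1 in the NMN liver libraries at 2680 mg/kg/d limit the fitted size for Cyp2c69. The kidney counts were too low for a test of most members. The read length is not given in the sources used here.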
